A study of Homo sapiens with 8 samples.

Results

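The 38 genes described here, of 63677 genes in the count tables, encode proteins that carry a cell from G2 into mitosis and through chromosome segregation and division. They were chosen by symbol and matched through the gene names in the deposited tables. Each of the 38 symbols matched a single gene identifier, and all 38 passed the filter on low counts in every test. MOLT-4 and DND-41, 2 human cell lines from T-cell acute lymphoblastic leukaemia, were given 100 nM ACBI-1 or the solvent DMSO for 8 h, and their total RNA was sequenced. ACBI-1 is a degrader: it brings the bromodomains of SMARCA2, SMARCA4 and PBRM1, subunits of BAF chromatin remodelling complexes, to the VHL ubiquitin ligase. The comparison asks which transcripts differ after this short treatment in each line. The 4 groups were MOLT-4 with ACBI-1, MOLT-4 with DMSO, DND-41 with ACBI-1 and DND-41 with DMSO, with 2 libraries each, and no genetic change is given in the labels. Both are established lines grown in culture. Nothing in the labels says that the replicates of a group came from separate cultures, so each p-value is set against a spread between libraries that could be technical alone.

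Entry into mitosis is driven by cyclin B bound to CDK1, which CDC25 phosphatases switch on by removing inhibitory phosphates. The spindle checkpoint then holds back the anaphase-promoting complex until all kinetochores are attached, after which CDC20 lets the complex mark securin and cyclin B for destruction. Most genes of this group are transcribed in G2, when MYBL2, FOXM1 and the MuvB complex bind the cell cycle genes homology region (CHR) of their promoters. NF-Y binds CCAAT boxes next to it.

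The promoters shown are those of the called genes with the largest changes, of CCNB1 and CDC20 as well-known members of the class, and of BUB1, which was added after its values were seen. They give the 250 bases before the 5′-most annotated start, from the RefSeq promoter table on GRCh38.p14, and the counts themselves were made on another build. Capitals mark CHR letters (TTTGAA or TTTAAA, either strand) and CCAAT letters (either strand). The windows are PTTG1 at chr5:160421605-160421854 on the plus strand, CCNB1 at chr5:69166900-69167149 on the plus strand, CDC20 at chr1:43358731-43358980 on the plus strand, CDC25B at chr20:3786701-3786950 on the plus strand and BUB1 at chr2:110678064-110678313 on the minus strand.
PTTG1: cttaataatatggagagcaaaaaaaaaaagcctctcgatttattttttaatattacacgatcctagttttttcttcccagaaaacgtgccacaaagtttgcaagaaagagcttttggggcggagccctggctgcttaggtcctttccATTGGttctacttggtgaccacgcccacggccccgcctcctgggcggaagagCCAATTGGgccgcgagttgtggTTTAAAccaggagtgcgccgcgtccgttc
CCNB1: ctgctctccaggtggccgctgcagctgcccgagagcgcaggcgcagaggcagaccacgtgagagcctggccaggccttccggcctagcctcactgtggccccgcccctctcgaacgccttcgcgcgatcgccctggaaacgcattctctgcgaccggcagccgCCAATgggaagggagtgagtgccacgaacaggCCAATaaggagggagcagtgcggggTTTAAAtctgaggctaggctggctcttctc
CDC20: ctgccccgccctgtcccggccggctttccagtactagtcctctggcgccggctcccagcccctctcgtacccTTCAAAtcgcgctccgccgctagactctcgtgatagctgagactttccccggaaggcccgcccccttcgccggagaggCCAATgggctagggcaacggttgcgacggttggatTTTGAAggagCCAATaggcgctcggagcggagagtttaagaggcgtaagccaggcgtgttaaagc
CDC25B: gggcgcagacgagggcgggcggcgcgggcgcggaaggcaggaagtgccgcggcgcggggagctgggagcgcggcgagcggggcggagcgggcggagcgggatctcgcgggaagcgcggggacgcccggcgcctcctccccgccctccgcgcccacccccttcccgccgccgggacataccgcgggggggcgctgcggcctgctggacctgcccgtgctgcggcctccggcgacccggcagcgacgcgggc
BUB1: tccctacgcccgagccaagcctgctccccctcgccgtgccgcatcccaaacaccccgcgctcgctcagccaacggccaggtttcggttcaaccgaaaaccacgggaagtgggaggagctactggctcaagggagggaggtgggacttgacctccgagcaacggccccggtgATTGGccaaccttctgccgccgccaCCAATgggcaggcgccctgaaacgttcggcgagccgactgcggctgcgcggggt
In PTTG1, the gene of securin, the TTTAAA letters begin 29 bases before the start, and CCAAT letters begin 51 and, on the other strand, 48 and 103 bases before it. In CCNB1, which encodes cyclin B1, TTTAAA begins 30 bases before the start and CCAAT 55 and 87 bases before it. The CDC20 window holds TTTGAA 65 bases before the start and the same letters on the other strand 178 bases before it, with CCAAT letters 55 and 100 bases before the start. BUB1, a checkpoint kinase gene, has CCAAT letters 54 and, on the other strand, 79 bases before the start and no CHR letters in the window. CDC25B has 4 annotated windows, and the 5′-most one shown holds neither.

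A window of 300 bases, the 250 before and 50 after the start, was on hand for 31 of the 38 genes; those of AURKA, BUB3, FOXM1, RACGAP1, TPX2, TTK and UBE2C are not used here. CHR letters were found in 26 of the 31 windows (83.9%), against 24.4% of 27305 genes with a window and 5 of 32 genes (15.6%) of a list of G1/S and replication genes. CCAAT letters were found in 24 windows (77.4%), against 35.7% of all genes and 50% of the G1/S genes. Both stood in 21 windows (67.7%), against 9.55% of all genes and 3.12% of the G1/S genes. Overlapping matches were each counted, and a match describes the letters only. Only the window at the 5′-most annotated start of each gene was searched. Those of AURKB, BUB1, CCNA2, CDC25B and CDC25C had no CHR letters. CDC25B and CDC25C have 4 annotated windows each and AURKB has 2, and their other windows were not searched.

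**Figure D1:**
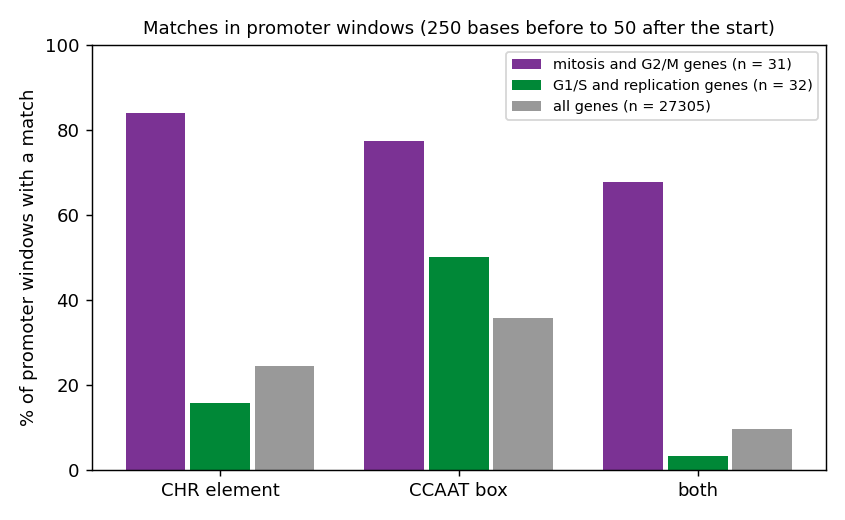
Share of promoter windows (y axis, %) that hold CHR letters, CCAAT letters or both, for the mitosis and G2/M genes (31 windows), the G1/S and replication genes (32 windows) and all genes (27305 windows). The mitosis bars stand at 83.9%, 77.4% and 67.7%, each above those of the G1/S genes and of all genes.

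Each library held between 19860759 and 20239888 counts. Levels are CPM (counts scaled to a common effective library size), on 1 scale over all 8 libraries, where 3 counts equal 0.137 to 0.165 CPM. Mitochondrially encoded genes took 21.3% and 24.6% of counts with ACBI-1, against 19% and 14.4% with DMSO in MOLT-4, and 15.5% and 11.8% with ACBI-1, against 12.1% and 13.2% with DMSO in DND-41. The 9 T-lineage genes were read in every library, with summed levels of 2829 to 3500.0 CPM in MOLT-4 and 4929 to 5419 CPM in DND-41. Of the 9, 1 was called higher and 6 lower in MOLT-4, and 3 higher and 6 lower in DND-41. Of all genes tested, 20.7% were called higher and 24.4% lower in MOLT-4, and 20% higher and 23.2% lower in DND-41. Of 6 B-lineage genes, MS4A1, PAX5 and CD22 had no count in any library. Their summed level in DND-41, nearly all of it CD79A, was 936 and 979.7 CPM with ACBI-1 and 1570.0 and 1588 CPM with DMSO. In MOLT-4 it was at most 8.24 CPM. The 6 stromal or epithelial genes summed to 0.794 and 14.9 CPM with ACBI-1, against 3.99 and 70.01 CPM with DMSO in MOLT-4, so both replicate 2 libraries stood above both replicate 1 libraries of that line. They reached at most 0.19 CPM in DND-41, EPCAM had no count in any library, and the sums of the 6 myeloid and the 5 erythroid genes were at most 0.696 and 0.771 CPM in any library. Their part in the results below was not tested, but the MOLT-4 counts are also given without both replicate 2 libraries.

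More transcripts of this group were called lower than higher after ACBI-1 in both lines, most by small amounts. In bulk RNA, fewer cells in G2 or mitosis and less RNA of these genes per cell cannot be told apart. In MOLT-4, 20 of the 38 genes were called lower and none higher, where 24.4% of the 14239 genes tested were called lower and 20.7% higher. In DND-41, 12 were called lower and 4 higher, where 23.2% of the 14008 genes tested were called lower and 20% higher. The calls are edgeR quasi-likelihood tests with an adjusted p under 0.05. By DESeq2, none were called higher and 20 lower in MOLT-4, and 1 higher and 9 lower in DND-41. Of all 14239 genes tested in MOLT-4, DESeq2 called 1962 higher and 2524 lower. Of all 14008 tested in DND-41, it called 1856 higher and 2465 lower. At an unadjusted edgeR p under 0.05, 1 gene of the 38 (BUB1) was higher and 23 were lower in MOLT-4. The share of all genes at that unadjusted threshold was not taken, so these counts have no background. The median log2 fold change over the 38 genes was −0.20 in MOLT-4, against 0.00 over all genes tested there, and −0.06 in DND-41, against 0.01 over all genes. In MOLT-4, 2 genes fell by at least 0.5 on the log2 scale and none rose by that much, where 14.9% and 7.02% of all genes did, and 2 fell by that much in DND-41, where 13.5% did. BUB1 alone rose by that much in DND-41, where 6.86% of all genes did, and its log2 fold change was 0.499 without ACBI-1 replicate 1. In MOLT-4, both ACBI-1 libraries lay below both DMSO libraries for 27 genes and above them for 3, where this held for 35.8% and 36% of all genes. The same was so for 19 and 8 genes in DND-41, where it held for 36.2% and 33.4% of all genes.

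Summed over the 38 genes, the level was 6914 and 6880.0 CPM with ACBI-1, against 7893 and 8057 CPM with DMSO in MOLT-4. The DND-41 sums were 7595 and 7457 CPM with ACBI-1, against 8069 and 8046 CPM with DMSO. The groups did not overlap in either line, and the gap was wider in MOLT-4. The 37 G1/S and replication genes summed to 6404 and 6374 CPM with ACBI-1, against 5918 and 5939 CPM with DMSO in MOLT-4, and to 6153 and 5902 CPM with ACBI-1, against 5752 and 5775 CPM with DMSO in DND-41. Those sums were higher with ACBI-1 in both lines, the other way from the mitotic genes.

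**Figure D2:**
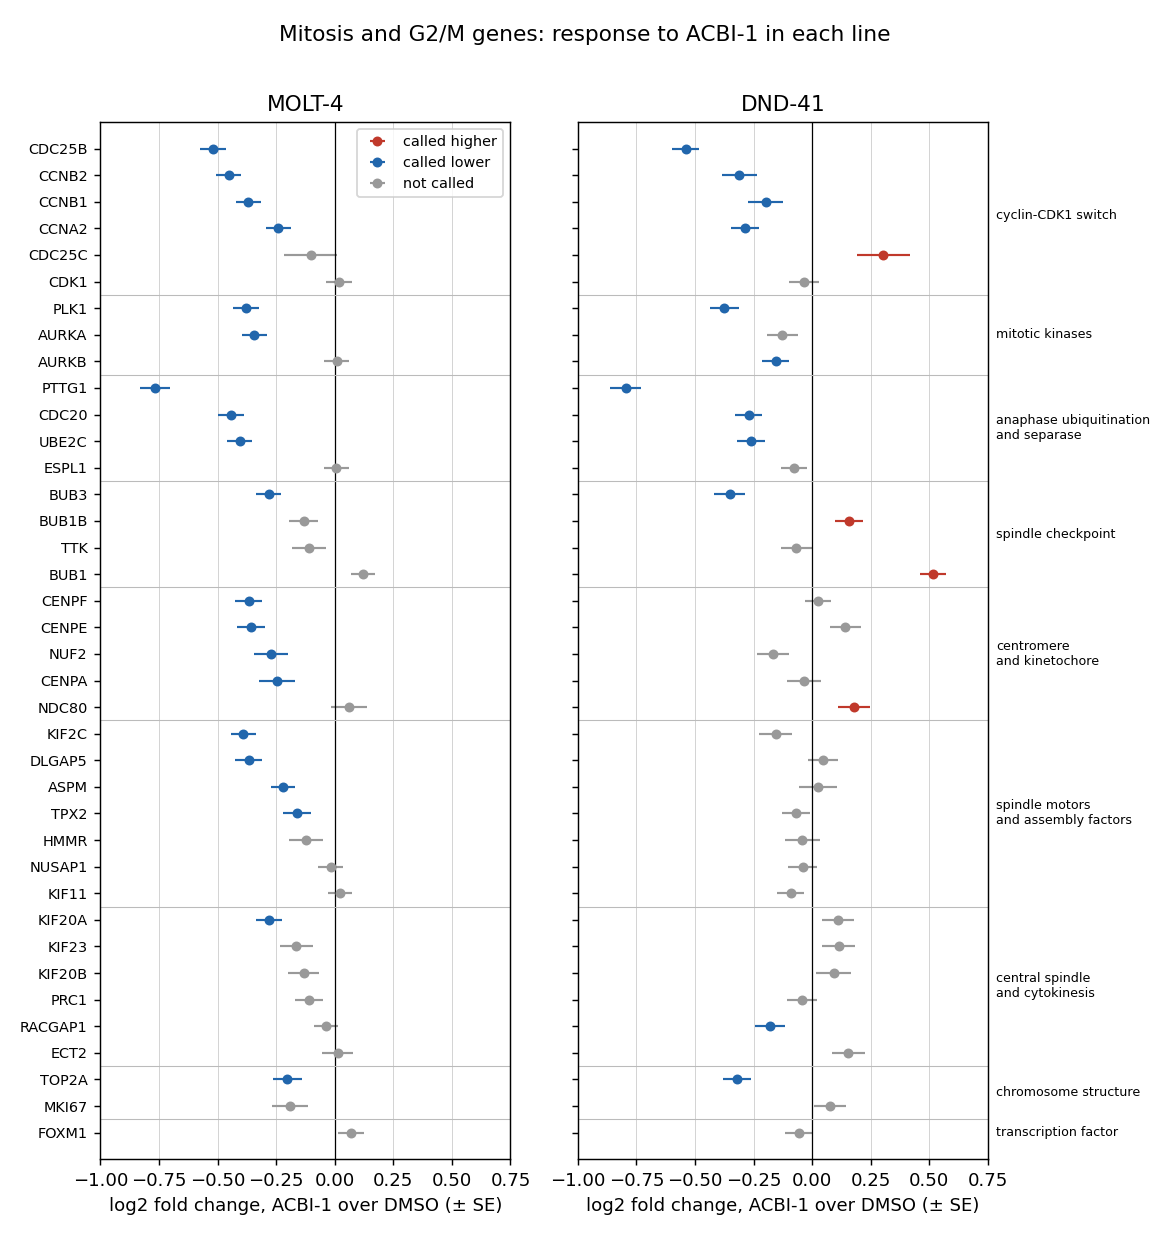
Log2 fold change of each gene, ACBI-1 over DMSO (x axis, ± SE, 2 libraries against 2), in MOLT-4 (left) and DND-41 (right), ordered by role; red and blue mark genes called higher and lower, grey those not called. In MOLT-4, 20 genes are blue and none red, and in DND-41 12 are blue and 4 red.

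The counts in DND-41 moved with single libraries. Without DMSO replicate 1, 7 genes were called lower and 1 higher there, while the share of all genes called fell to 29.5%, against 43.2% with all libraries. Without DMSO replicate 2, 9 were called lower and 1 higher, with 30% of all genes called. In MOLT-4, 18 to 22 genes were called lower when each library was left out in turn, against 20 with all 4, where 45.1% of all genes were called. Without both replicate 2 libraries, 1 library was left in each MOLT-4 group, and it was fitted together with DND-41, whose libraries then gave all of the spread. That fit called 14 lower, with 22.5% of all genes called and a median over the 38 of −0.21 (log2). The MOLT-4 calls that ended without both replicate 2 libraries were those of CENPA, TOP2A, KIF20A, TPX2, NUF2 and ASPM. Their log2 fold changes in that fit were −0.137, −0.213, −0.230, −0.185, −0.269 and −0.260, in that order. With all 8 libraries in 1 fit, 21 were called lower, with 40% of all genes called and a median of −0.19. When libraries were scaled by size alone, the calls over all genes in MOLT-4 became 1781 higher and 3922 lower, against 2948 and 3477 with TMM, and 23 of the 38 were called lower and none higher.

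Of the cyclins and CDC25 phosphatases that set the CDK1 switch, 4 of 6 genes fell in each line. Falls were called for 24.4% of all genes tested in MOLT-4 and 23.2% in DND-41. CDC25B, a phosphatase that activates cyclin-CDK1 in late G2, had 301 and 297 CPM with ACBI-1, against 424 and 429 CPM with DMSO in MOLT-4. CDC25B in DND-41 had 231 and 230.3 CPM with ACBI-1, against 337 and 340.1 CPM with DMSO. Its groups were far apart in both lines, with log2 fold changes of −0.52 ± 0.06, adjusted p = 2.16e-07 in MOLT-4 and −0.54 ± 0.06, adjusted p = 2.32e-06 in DND-41. CCNB2, which encodes cyclin B2, had 76.9 and 79.8 CPM with ACBI-1, against 107 and 107 CPM with DMSO in MOLT-4. CCNB2 in DND-41 had 83.6 and 71.3 CPM with ACBI-1, against 99.7 and 94.1 CPM with DMSO. It fell in both lines (−0.45 ± 0.05, adjusted p = 1.14e-06 in MOLT-4 and −0.31 ± 0.07, adjusted p = 0.00401 in DND-41). CCNB1 had 91.0 and 93.6 CPM with ACBI-1, against 119 and 119 CPM with DMSO in MOLT-4. CCNB1 in DND-41 had 96.2 and 82.1 CPM with ACBI-1, against 106 and 101 CPM with DMSO. It fell in MOLT-4 (−0.37 ± 0.05, adjusted p = 1.00e-05) and, by a smaller amount that only just passed the threshold, in DND-41 (−0.20 ± 0.07, adjusted p = 0.043). CCNA2, the gene of cyclin A2, which acts in S and G2, had 154 and 157 CPM with ACBI-1, against 186 and 180.2 CPM with DMSO in MOLT-4. CCNA2 in DND-41 had 136 and 126 CPM with ACBI-1, against 159.8 and 163 CPM with DMSO. It fell by similar amounts in MOLT-4 (−0.24 ± 0.05, adjusted p = 8.39e-04) and DND-41 (−0.29 ± 0.06, adjusted p = 0.00143). CDC25C, the phosphatase that acts with CDC25B at mitotic entry, was the least abundant of the 38 per kilobase of exon. It had 14.7 and 13.4 CPM with ACBI-1, against 16.7 and 13.4 CPM with DMSO in MOLT-4, where the groups overlapped (−0.10 ± 0.11, adjusted p = 0.494). CDC25C in DND-41 had 17.2 and 13.9 CPM with ACBI-1, against 12.8 and 12.7 CPM with DMSO, a rise of 0.30 ± 0.11, adjusted p = 0.0422 (log2). CDK1, the kinase itself, was not called, at 0.02 ± 0.06, adjusted p = 0.831 in MOLT-4 and −0.04 ± 0.06, adjusted p = 0.695 in DND-41, with overlapping groups in both.

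The DND-41 calls of CCNB1 and CDC25C depended on the test and on single libraries. By DESeq2 with all libraries, neither CCNB1 (adjusted p = 0.102) nor CDC25C (adjusted p = 0.165) was called there. CCNB1 was at −0.32 (log2) without ACBI-1 replicate 1, log2 −0.09 at an adjusted p of 0.27 without ACBI-1 replicate 2, log2 −0.17 at an adjusted p of 0.229 without DMSO replicate 1 and log2 −0.23 at an adjusted p of 0.07 without DMSO replicate 2. CDC25C was at log2 0.14 at an adjusted p of 0.343 without ACBI-1 replicate 1, log2 0.30 at an adjusted p of 0.107 without DMSO replicate 1 and log2 0.29 at an adjusted p of 0.112 without DMSO replicate 2. CCNB2 stayed called, at −0.20 without ACBI-1 replicate 2. CDC25C shares 293 exon bases with FAM53C on the opposite strand, whose counts were 540% of its own, and CCNA2 shares 254 with EXOSC9 on the opposite strand, at 38.7% of its own. The strand setting of the counting is not given in the sources used here, so reads of such pairs may not be told apart.

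Among the mitotic kinases, PLK1 fell in both lines and the Aurora kinases in 1 line each. PLK1, the Polo-like kinase of mitotic entry and spindle formation, had 301 and 300.3 CPM with ACBI-1, against 398 and 383 CPM with DMSO in MOLT-4. PLK1 in DND-41 had 325 and 301 CPM with ACBI-1, against 416 and 404 CPM with DMSO. The log2 fold change was −0.38 ± 0.06, adjusted p = 1.18e-05 in MOLT-4 and −0.38 ± 0.06, adjusted p = 1.66e-04 in DND-41, so the fall was nearly the same size. AURKA, the centrosome and spindle kinase, had 95.7 and 102 CPM with ACBI-1, against 126 and 124 CPM with DMSO in MOLT-4. AURKA in DND-41 had 78.2 and 72.9 CPM with ACBI-1, against 86.2 and 80.3 CPM with DMSO. It fell in MOLT-4 (−0.34 ± 0.05, adjusted p = 2.78e-05) and was not called in DND-41 (−0.13 ± 0.07, adjusted p = 0.139), although it was without ACBI-1 replicate 1 (log2 −0.18 at an adjusted p of 0.0212). AURKB, the kinase of the chromosomal passenger complex, was not called in MOLT-4 (0.01 ± 0.05, adjusted p = 0.918). It was called lower in DND-41 (−0.16 ± 0.06, adjusted p = 0.0445), though not by DESeq2 (log2 −0.16 at an adjusted p of 0.0978). That call ended without ACBI-1 replicate 2 (log2 −0.11 at an adjusted p of 0.113), without DMSO replicate 1 (log2 −0.17 at an adjusted p of 0.241) and without DMSO replicate 2 (log2 −0.15 at an adjusted p of 0.272).

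The regulators of the metaphase to anaphase transition held the gene with the largest change of the 38 in either line, PTTG1. PTTG1 encodes securin, which keeps separase inactive until the anaphase-promoting complex destroys it. It had 88.8 and 77.7 CPM with ACBI-1, against 136 and 146 CPM with DMSO in MOLT-4. PTTG1 in DND-41 had 70.2 and 63.4 CPM with ACBI-1, against 119.8 and 114 CPM with DMSO. Each treated library was well below each control, and the log2 fold change was −0.77 ± 0.06, adjusted p = 6.07e-09 in MOLT-4 and −0.80 ± 0.07, adjusted p = 2.57e-07 in DND-41. Its near copies PTTG2 and PTTG3P had no counts. CDC20, the activator of the anaphase-promoting complex, had 267 and 265 CPM with ACBI-1, against 354 and 369 CPM with DMSO in MOLT-4. CDC20 in DND-41 had 311 and 300.1 CPM with ACBI-1, against 379 and 365 CPM with DMSO. Its near copy CDC20P1 had 1392 counts over the 8 libraries. CDC20 fell in both lines (−0.44 ± 0.06, adjusted p = 1.63e-06 in MOLT-4 and −0.27 ± 0.06, adjusted p = 0.00167 in DND-41). UBE2C, the ubiquitin-conjugating enzyme of the same complex, had 101 and 95.9 CPM with ACBI-1, against 128 and 132 CPM with DMSO in MOLT-4. UBE2C in DND-41 had 161 and 155 CPM with ACBI-1, against 197 and 185 CPM with DMSO. Its log2 fold change was −0.41 ± 0.05, adjusted p = 4.15e-06 in MOLT-4 and −0.26 ± 0.06, adjusted p = 0.00249 in DND-41. Without DMSO replicate 1 of DND-41 the calls there ended for CDC20 (log2 −0.25 at an adjusted p of 0.0622) and UBE2C (log2 −0.23 at an adjusted p of 0.0894). ESPL1, which encodes separase, was not called in MOLT-4 (0.01 ± 0.05, adjusted p = 0.927) or DND-41 (−0.08 ± 0.06, adjusted p = 0.298). Securin transcripts were thus lower in both lines while no change in separase transcripts passed the test.

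The spindle checkpoint genes did not move as 1 block. BUB1, the kinase that marks centromeric chromatin and recruits checkpoint proteins to kinetochores, had 210.2 and 214 CPM with ACBI-1, against 195 and 193 CPM with DMSO in MOLT-4. BUB1 in DND-41 had 358 and 351 CPM with ACBI-1, against 250.03 and 249.9 CPM with DMSO. It rose in DND-41 (0.52 ± 0.06, adjusted p = 3.90e-06) and was not called in MOLT-4 (0.12 ± 0.05, adjusted p = 0.0633), although the treated libraries lay above the controls in both. BUB3, the WD40 protein that brings BUB1 and BUBR1 to kinetochores, had 120.0 and 124 CPM with ACBI-1, against 149.6 and 146 CPM with DMSO in MOLT-4. BUB3 in DND-41 had 137 and 121 CPM with ACBI-1, against 169 and 164 CPM with DMSO. BUB3 moved the other way from its partner BUB1 and fell in both lines (−0.28 ± 0.05, adjusted p = 1.67e-04 in MOLT-4 and −0.35 ± 0.07, adjusted p = 6.09e-04 in DND-41). BUB1B, which encodes the checkpoint effector BUBR1, was not called in MOLT-4 (−0.13 ± 0.06, adjusted p = 0.0888). It was called higher in DND-41 (0.16 ± 0.06, adjusted p = 0.0478), though not by DESeq2 (log2 0.16 at an adjusted p of 0.138). The BUB1B call ended without ACBI-1 replicate 2 (log2 0.12 at an adjusted p of 0.119), without DMSO replicate 1 (log2 0.14 at an adjusted p of 0.35) and without DMSO replicate 2 (log2 0.16 at an adjusted p of 0.247). TTK, the MPS1 kinase at the head of the checkpoint, was not called in MOLT-4 (−0.11 ± 0.07, adjusted p = 0.226) or DND-41 (−0.07 ± 0.07, adjusted p = 0.461).

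**Figure D3:**
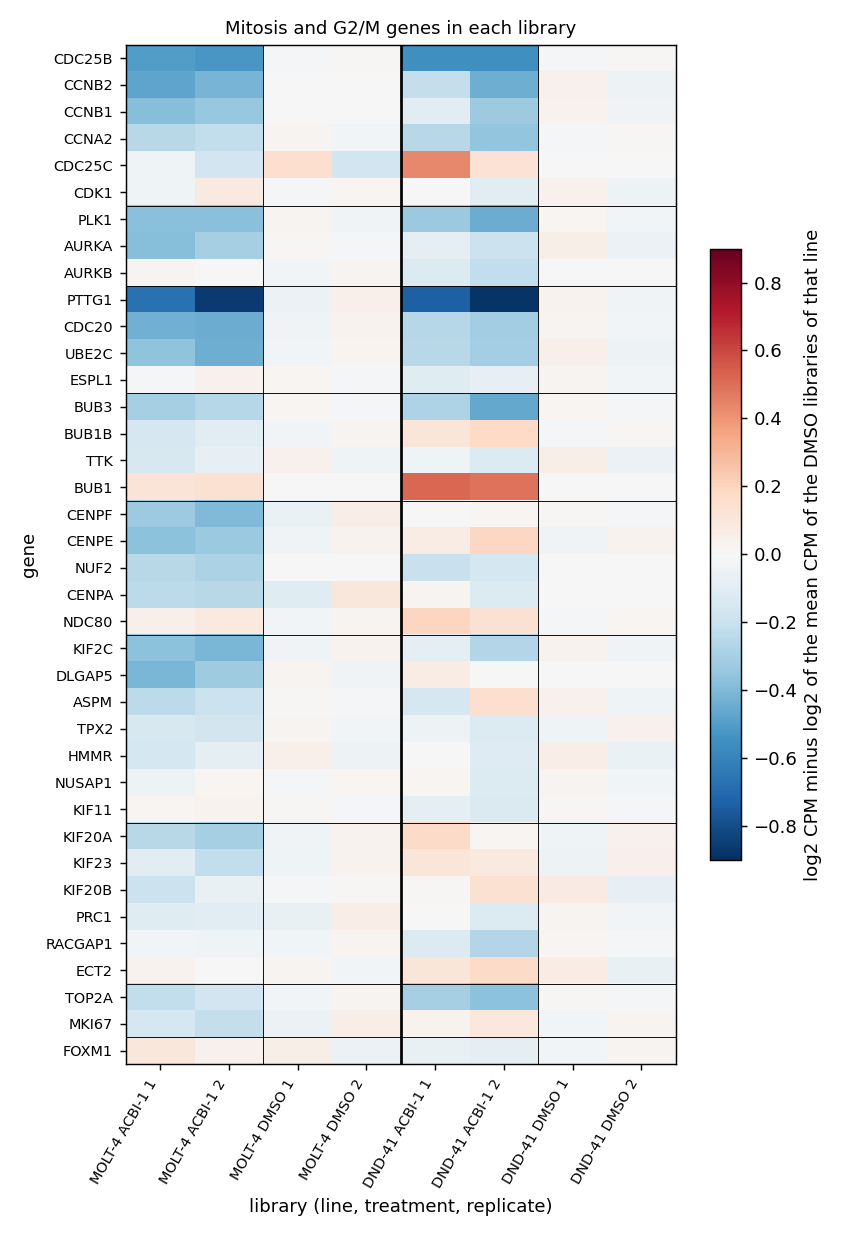
Level of each gene in each library, as log2 CPM minus the log2 of the mean CPM of the DMSO libraries of that line (colour), with genes in rows by role and the 8 libraries in columns. PTTG1 and CDC25B are blue in all 4 ACBI-1 libraries, while BUB1 is red in both DND-41 ACBI-1 libraries and pale in both MOLT-4 ones.

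Of the 5 centromere and kinetochore genes, 4 fell in MOLT-4 and none in DND-41, against 24.4% and 23.2% of all genes tested. CENPF, a large coiled-coil protein of the outer kinetochore, had 215 and 205 CPM with ACBI-1, against 259 and 280.5 CPM with DMSO in MOLT-4. CENPF in DND-41 had 327 and 329 CPM with ACBI-1, against 327 and 324 CPM with DMSO. It fell in MOLT-4 (−0.37 ± 0.06, adjusted p = 2.79e-05), and the groups overlapped in DND-41 (0.02 ± 0.06, adjusted p = 0.772). CENPE, the kinesin that carries chromosomes to the spindle equator, had 59.9 and 61.4 CPM with ACBI-1, against 75.8 and 79.2 CPM with DMSO in MOLT-4. CENPE in DND-41 had 62.1 and 67.2 CPM with ACBI-1, against 57.9 and 60.4 CPM with DMSO. CENPE fell in MOLT-4 (−0.36 ± 0.06, adjusted p = 7.24e-05) and was not called in DND-41 (0.14 ± 0.07, adjusted p = 0.104), although it was called higher there without ACBI-1 replicate 1 (log2 0.19 at an adjusted p of 0.0136). CENPA, the histone H3 variant that marks centromeres, had 41.0 and 40.5 CPM with ACBI-1, against 44.7 and 51.7 CPM with DMSO in MOLT-4, and 43.9 and 39.5 CPM with ACBI-1, against 43.1 and 43.2 CPM with DMSO in DND-41. It was not called in DND-41 (−0.04 ± 0.07, adjusted p = 0.729). In MOLT-4 it was called lower (−0.25 ± 0.08, adjusted p = 0.0135), though not by DESeq2 (log2 −0.24 at an adjusted p of 0.0714). The MOLT-4 call of CENPA ended without DMSO replicate 2 (log2 −0.13 at an adjusted p of 0.188) and without both replicate 2 libraries (log2 −0.14 at an adjusted p of 0.403), and CENPA shares 138 exon bases with SLC35F6 on the same strand, whose counts were 84.9% of its own. The microtubule-binding NDC80 complex gave different calls for a pair of its subunits. NUF2 fell in MOLT-4 (−0.27 ± 0.07, adjusted p = 0.00383) and was not called in DND-41 (−0.17 ± 0.07, adjusted p = 0.0637). NDC80 was not called in MOLT-4 (0.06 ± 0.08, adjusted p = 0.56). It was called higher in DND-41 (0.18 ± 0.07, adjusted p = 0.046), though not by DESeq2 (log2 0.18 at an adjusted p of 0.203). NUF2 was called lower in DND-41 without ACBI-1 replicate 2 (log2 −0.19 at an adjusted p of 0.0462). The NDC80 call ended without ACBI-1 replicate 1 (log2 0.14 at an adjusted p of 0.114), without DMSO replicate 1 (log2 0.15 at an adjusted p of 0.316) and without DMSO replicate 2 (log2 0.19 at an adjusted p of 0.196).

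Among 7 spindle motors and assembly factors, 4 fell in MOLT-4 and none were called in DND-41. Of all genes tested, 24.4% were called lower in MOLT-4 and 43.2% were called either way in DND-41. KIF2C, the MCAK kinesin that takes microtubule ends apart at centromeres, had 105 and 102 CPM with ACBI-1, against 133 and 139 CPM with DMSO in MOLT-4. KIF2C in DND-41 had 116 and 101 CPM with ACBI-1, against 125 and 119 CPM with DMSO. The KIF2C level fell in MOLT-4 (−0.39 ± 0.05, adjusted p = 5.34e-06) and was not called in DND-41 (−0.16 ± 0.07, adjusted p = 0.084), but was called lower there without ACBI-1 replicate 1 (log2 −0.26 at an adjusted p of 2.55e-04), with the replicate block (log2 −0.16 at an adjusted p of 0.0148) and with all 8 libraries in 1 fit (log2 −0.17 at an adjusted p of 0.0423). DLGAP5, the microtubule-stabilising protein HURP, had 72.4 and 77.0 CPM with ACBI-1, against 98.0 and 94.2 CPM with DMSO in MOLT-4. DLGAP5 in DND-41 had 63.5 and 60.6 CPM with ACBI-1, against 60.4 and 60.8 CPM with DMSO. DLGAP5 fell in MOLT-4 (−0.37 ± 0.06, adjusted p = 2.63e-05), and the DND-41 groups overlapped (0.05 ± 0.06, adjusted p = 0.591). KIF11, the kinesin Eg5 that pushes spindle poles apart, had 126 and 128 CPM with ACBI-1, against 126 and 124 CPM with DMSO in MOLT-4, and 124 and 119.7 CPM with ACBI-1, against 132 and 131 CPM with DMSO in DND-41. It was called in neither MOLT-4 (0.02 ± 0.05, adjusted p = 0.768) nor DND-41 (−0.09 ± 0.06, adjusted p = 0.224). ASPM, a spindle pole protein, fell in MOLT-4 (−0.22 ± 0.05, adjusted p = 0.00171), as did TPX2, the activator of Aurora A (−0.16 ± 0.06, adjusted p = 0.0294). TPX2 was no longer called without ACBI-1 replicate 1 (log2 −0.17 at an adjusted p of 0.0973), without ACBI-1 replicate 2 (log2 −0.14 at an adjusted p of 0.176) or without DMSO replicate 1 (log2 −0.13 at an adjusted p of 0.0963). In DND-41, TPX2 was at −0.07 ± 0.06, adjusted p = 0.395, and ASPM was at 0.02 ± 0.08, adjusted p = 0.851 and took opposite signs when 1 treated library was left out, log2 0.16 at an adjusted p of 0.00992 without ACBI-1 replicate 1 and log2 −0.14 at an adjusted p of 0.0361 without ACBI-1 replicate 2. The microtubule-binding proteins HMMR (log2 −0.12 in MOLT-4 and −0.04 in DND-41) and NUSAP1 (−0.02 in MOLT-4 and −0.04 in DND-41) were not called in either line.

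The 6 genes of the central spindle and cytokinesis gave 1 fall in each line. Falls were called for 24.4% of all genes tested in MOLT-4 and 23.2% in DND-41. KIF20A, the kinesin MKLP2 that moves the chromosomal passenger complex to the central spindle, had 90.9 and 87.8 CPM with ACBI-1, against 106 and 111 CPM with DMSO in MOLT-4. KIF20A in DND-41 had 105 and 94.3 CPM with ACBI-1, against 90.8 and 95.5 CPM with DMSO. It fell in MOLT-4 (−0.28 ± 0.06, adjusted p = 3.19e-04), and the groups overlapped in DND-41 (0.11 ± 0.07, adjusted p = 0.206). KIF20A was called higher in DND-41 without ACBI-1 replicate 2 (log2 0.18 at an adjusted p of 0.0126). It shares exon bases on the opposite strand with BRD8 and CDC23, whose counts were 150% and 89.8% of its own. RACGAP1, a subunit of centralspindlin, was not called in MOLT-4 (−0.04 ± 0.05, adjusted p = 0.614). It was called lower in DND-41 (−0.18 ± 0.06, adjusted p = 0.0328), though not by DESeq2 (log2 −0.18 at an adjusted p of 0.0839). Its call ended without ACBI-1 replicate 2 (log2 −0.11 at an adjusted p of 0.122), without DMSO replicate 1 (log2 −0.17 at an adjusted p of 0.237) and without DMSO replicate 2 (log2 −0.20 at an adjusted p of 0.126). KIF23, its kinesin partner, was not called in MOLT-4 (−0.16 ± 0.07, adjusted p = 0.0672) or DND-41 (0.11 ± 0.07, adjusted p = 0.211), and neither were the kinesin KIF20B, the bundling protein PRC1 or the RhoA exchange factor ECT2, whose log2 fold changes lay between −0.13 and 0.01 in MOLT-4 and between −0.04 and 0.15 in DND-41. Some of these were called under alternatives. Without MOLT-4 DMSO replicate 1, KIF23 (log2 −0.19 at an adjusted p of 0.0319) and PRC1 (log2 −0.17 at an adjusted p of 0.0379) were called lower, and without DND-41 ACBI-1 replicate 1, ECT2 was called higher (log2 0.18 at an adjusted p of 0.0254). With the replicate block KIF23 (log2 −0.17 at an adjusted p of 0.0304, MOLT-4) and ECT2 (log2 0.16 at an adjusted p of 0.027, DND-41) were called, and with library size alone KIF23 (log2 −0.24 at an adjusted p of 0.0292) and KIF20B (log2 −0.21 at an adjusted p of 0.0472) in MOLT-4.

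The most abundant proliferation genes differed from each other. TOP2A, the topoisomerase that untangles sister chromatids, had 602 and 625 CPM with ACBI-1, against 692 and 715 CPM with DMSO in MOLT-4. TOP2A in DND-41 had 554 and 527 CPM with ACBI-1, against 688 and 675 CPM with DMSO. It fell in both lines (−0.20 ± 0.06, adjusted p = 0.0113 in MOLT-4 and −0.32 ± 0.06, adjusted p = 5.84e-04 in DND-41), and the MOLT-4 call ended without ACBI-1 replicate 1 (log2 −0.17 at an adjusted p of 0.108). MKI67, the Ki-67 protein that coats mitotic chromosomes, just missed the threshold in MOLT-4 (−0.19 ± 0.08, adjusted p = 0.0502) and was not called in DND-41 (0.08 ± 0.07, adjusted p = 0.382). MKI67 was called lower in MOLT-4 without DMSO replicate 1 (log2 −0.24 at an adjusted p of 0.00719), by DESeq2 (log2 −0.19 at an adjusted p of 0.00479) and in 5 other alternatives (the replicate block, all 8 libraries in 1 fit, at least 1 CPM in every library, no filter, and without mitochondrially encoded genes). FOXM1, the transcription factor of this programme, had 321 and 307 CPM with ACBI-1, against 309.5 and 288 CPM with DMSO in MOLT-4. FOXM1 in DND-41 had 347 and 343 CPM with ACBI-1, against 356 and 368 CPM with DMSO. It was called in neither MOLT-4 (0.07 ± 0.06, adjusted p = 0.347), where the groups overlapped, nor DND-41 (−0.06 ± 0.06, adjusted p = 0.451). It shares 781 exon bases with ITFG2 on the opposite strand, whose counts were 13.8% of its own.

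Read across the lines, 10 genes were called lower in both: CCNA2, CCNB1, CCNB2, CDC25B, PLK1, BUB3, CDC20, UBE2C, PTTG1 and TOP2A. No gene was called higher in both or in opposite directions, 10 were called in MOLT-4 alone, 6 in DND-41 alone and 12 in neither. The log2 fold changes of the 38 genes had a Pearson's r of 0.659 between the lines, which share no library, and the same sign in 23 genes. These counts across lines and this r were not taken over all genes tested. Of those, 45.1% were called in MOLT-4 and 43.2% in DND-41, so no agreement particular to the 38 can be read from them. The test of the difference itself, MOLT-4 effect minus DND-41 effect, called 6 genes, each with the lower value in MOLT-4, where 6.17% of the 15498 genes tested were called lower and 7.18% higher. None of the 38 was called higher in this edgeR test or by DESeq2. DESeq2 called 6 lower, with MKI67 (log2 −0.26 at an adjusted p of 0.0132) called and BUB1B (log2 −0.28 at an adjusted p of 0.063) not. Of all 15498 genes, DESeq2 called 773 higher and 719 lower in this difference. At an unadjusted edgeR p under 0.05, 1 of the 38 was higher and 12 were lower, but the share of all genes there was not taken. CENPE differed most, at −0.48 ± 0.09, adjusted p = 8.11e-04, with log2 fold changes of −0.36 in MOLT-4 and 0.14 in DND-41. The difference was −0.40 ± 0.08, adjusted p = 0.00319 for DLGAP5, −0.38 ± 0.07, adjusted p = 0.00176 for BUB1 and −0.37 ± 0.08, adjusted p = 0.00365 for CENPF. It was −0.37 ± 0.09, adjusted p = 0.00785 for KIF20A and −0.27 ± 0.08, adjusted p = 0.0339 for BUB1B. CDC25C had the third largest difference and was not called (−0.39 ± 0.17, adjusted p = 0.155). For 4 of the 6 (CENPE, DLGAP5, CENPF and KIF20A) the gene fell in MOLT-4 and was not called in DND-41, while BUB1 and BUB1B were called higher in DND-41 and not called in MOLT-4. The 10 genes lower in both lines gave no called difference, and for PTTG1 (0.05 ± 0.10, adjusted p = 0.847) and CDC25B (0.04 ± 0.07, adjusted p = 0.822) the effects lay close together.

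**Figure D4:**
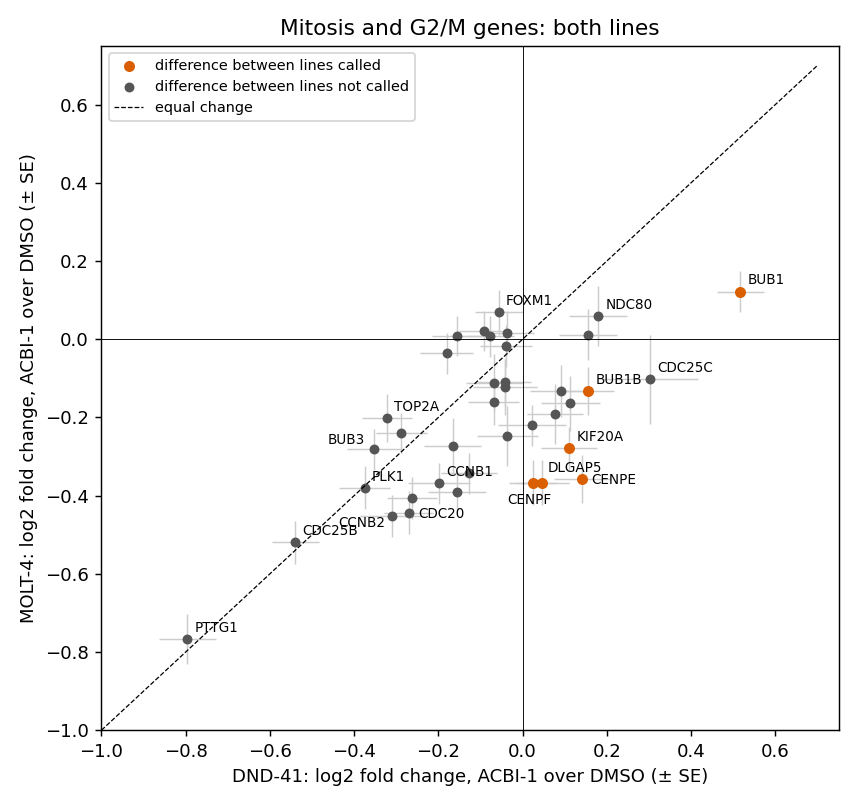
Log2 fold change, ACBI-1 over DMSO (± SE), of each of the 38 genes in MOLT-4 (y axis) against DND-41 (x axis), with the line of equal change dashed and the 6 genes whose effect differed between lines in orange. PTTG1, CDC25B and PLK1 lie near the dashed line, and CENPE, CENPF, DLGAP5 and BUB1 lie below it.

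The calls of a difference depended on single libraries for some of the 6. BUB1B was not called without any 1 of the 4 DMSO libraries, without either MOLT-4 ACBI-1 library or without DND-41 ACBI-1 replicate 2, with adjusted p from 0.058 to 0.168 in those fits. KIF20A was not called without DND-41 DMSO replicate 1 (log2 −0.33 at an adjusted p of 0.0681), without MOLT-4 ACBI-1 replicate 2 (log2 −0.34 at an adjusted p of 0.0582) or without both MOLT-4 replicate 2 libraries (log2 −0.34 at an adjusted p of 0.142), and the last also ended the call of CENPF (log2 −0.30 at an adjusted p of 0.102). Leaving out 1 library also made new calls: CCNB1 (log2 −0.26 at an adjusted p of 0.0421), CDC25C (log2 −0.53 at an adjusted p of 0.0395) and KIF2C (log2 −0.31 at an adjusted p of 0.0164) without DND-41 ACBI-1 replicate 2, CDC25C without MOLT-4 DMSO replicate 2 (log2 −0.56 at an adjusted p of 0.0476), and AURKB (log2 0.24 at an adjusted p of 0.0464), RACGAP1 (log2 0.24 at an adjusted p of 0.0499) and ASPM (log2 −0.36 at an adjusted p of 0.00345) without DND-41 ACBI-1 replicate 1. When libraries were scaled by size alone, the median of this difference over all genes moved to −0.12, against 0.00 with TMM, and 11 of the 38 genes were called lower, while over all genes 499 were called higher and 1411 lower, against 1112 and 956.

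Without the degrader, the lines expressed these genes at similar summed levels but with a different balance. Among DMSO libraries, 14 of the 38 genes were called higher and 11 lower in MOLT-4 than in DND-41, where 33.2% and 30.7% of the 15498 genes tested were. Line, culture and library preparation cannot be told apart in this comparison. All 4 checkpoint genes were lower in MOLT-4, among them BUB1B (−0.60 ± 0.06, adjusted p = 2.95e-08), TTK (−0.59 ± 0.07, adjusted p = 2.24e-07) and BUB1 (−0.36 ± 0.05, adjusted p = 7.54e-06). The fourth, BUB3 (−0.17 ± 0.06, adjusted p = 0.0213), was no longer called without DND-41 DMSO replicate 1 (log2 −0.15 at an adjusted p of 0.126), DND-41 DMSO replicate 2 (log2 −0.19 at an adjusted p of 0.0542) or MOLT-4 DMSO replicate 2 (log2 −0.14 at an adjusted p of 0.141). The Aurora kinases were opposite, with AURKA higher in MOLT-4 (0.58 ± 0.06, adjusted p = 9.30e-08) and AURKB lower (−0.80 ± 0.06, adjusted p = 2.99e-10). DLGAP5 was the gene most above DND-41 (0.66 ± 0.06, adjusted p = 1.09e-08). NDC80 (−0.65 ± 0.07, adjusted p = 2.21e-07) and UBE2C (−0.55 ± 0.06, adjusted p = 8.19e-08) were lower in MOLT-4. With library size alone as the scale, 6 of the 38 were called higher and 13 lower, and the median of all genes moved to −0.09, against 0.01 with TMM. Of all genes, 4148 were then called higher and 5504 lower. Per kilobase of exon, CDC20 stood highest of the 38 in the DMSO libraries, with means of 177 CPM per kb in MOLT-4 and 183 CPM per kb in DND-41, and TPX2 had 156 CPM per kb in MOLT-4 and 162 CPM per kb in DND-41. CDC25C was lowest, at 4.52 CPM per kb in MOLT-4 and 3.81 CPM per kb in DND-41.

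Other genes of the mitotic machinery did not share 1 direction. Over all genes tested, 20.7% were called higher and 24.4% lower in MOLT-4, and 20% higher and 23.2% lower in DND-41. Of 44 further spindle, centrosome and cytokinesis genes, 5 were called higher and 21 lower in MOLT-4 (median log2 fold change −0.15), and 6 were called higher and 16 lower in DND-41 (median log2 fold change −0.07). GTSE1, a microtubule-bound G2 protein, fell in MOLT-4 (−0.51 ± 0.06, adjusted p = 2.46e-07) and DND-41 (−0.46 ± 0.06, adjusted p = 2.11e-05). CKAP2 fell in MOLT-4 (−0.54 ± 0.06, adjusted p = 3.55e-07) and DND-41 (−0.33 ± 0.06, adjusted p = 6.84e-04), as did the tubulin gene TUBB4B (−0.41 ± 0.06, adjusted p = 1.14e-05 in MOLT-4 and −0.54 ± 0.06, adjusted p = 3.63e-06 in DND-41), while STIL, a centriole assembly factor, rose in both (0.37 ± 0.05, adjusted p = 1.33e-05 in MOLT-4 and 0.38 ± 0.06, adjusted p = 2.50e-04 in DND-41). Of 34 further kinetochore and centromere genes, 14 were called higher and 3 lower in MOLT-4 (median log2 fold change 0.15), and 11 were called higher and 4 lower in DND-41 (median log2 fold change 0.13). Of the Mis12 complex, the subunit gene DSN1 rose in MOLT-4 (0.39 ± 0.06, adjusted p = 2.28e-05) and DND-41 (0.50 ± 0.07, adjusted p = 5.90e-05), and MIS12 itself fell in MOLT-4 (−0.33 ± 0.09, adjusted p = 0.00584) and DND-41 (−0.50 ± 0.08, adjusted p = 1.85e-04). MAD2L1BP, whose protein p31comet disassembles the checkpoint complex, fell in MOLT-4 (−1.51 ± 0.14, adjusted p = 3.14e-08). Its effect differed between the lines (MOLT-4 minus DND-41, log2 −1.41). Of 23 chromosomal passenger, cohesin and condensin genes, 6 were called higher and 3 lower in MOLT-4 (median log2 fold change 0.05), and 8 were called higher and 2 lower in DND-41 (median log2 fold change 0.10). GSG2, which encodes the haspin kinase, rose in DND-41 (0.85 ± 0.07, adjusted p = 1.52e-07). The GSG2 effect also differed between the lines (MOLT-4 minus DND-41, log2 −0.81). Of 16 genes of the anaphase-promoting complex, 3 were called higher and 4 lower in MOLT-4 (median log2 fold change 0.02), and 3 were called higher and 4 lower in DND-41 (median log2 fold change −0.02). Its subunit gene ANAPC11 rose in MOLT-4 (0.45 ± 0.06, adjusted p = 9.86e-06) and DND-41 (0.54 ± 0.09, adjusted p = 2.04e-04), and ANAPC7 fell in MOLT-4 (−0.31 ± 0.06, adjusted p = 5.64e-04) and DND-41 (−0.38 ± 0.08, adjusted p = 0.00149).

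Among genes that act before or at mitotic entry, more were called higher than lower. Of 37 G1/S and replication genes, 20 were called higher and 3 lower in MOLT-4 (median log2 fold change 0.16), and 14 were called higher and 6 lower in DND-41 (median log2 fold change 0.13). RRM2, a ribonucleotide reductase subunit, rose in MOLT-4 (0.42 ± 0.05, adjusted p = 3.42e-06) and DND-41 (0.37 ± 0.06, adjusted p = 9.74e-05), and CCNE2, the gene of cyclin E2, rose in MOLT-4 (0.77 ± 0.07, adjusted p = 4.62e-08). The CCNE2 effect differed between the lines (MOLT-4 minus DND-41, log2 0.54). UHRF1, which maintains DNA methylation after replication, fell in MOLT-4 (−0.72 ± 0.06, adjusted p = 2.97e-09) and DND-41 (−0.80 ± 0.06, adjusted p = 8.41e-08). Of 14 tested genes that restrain or promote mitotic entry, 9 were called higher and 2 lower in MOLT-4 (median log2 fold change 0.20), and 9 were called higher and 1 lower in DND-41 (median log2 fold change 0.27). The list holds genes of both kinds, such as the inhibitory kinase gene WEE1 and the promoting phosphatase gene CDC25A. PKMYT1, the kinase that phosphorylates CDK1 to hold it off, rose in MOLT-4 (0.38 ± 0.06, adjusted p = 1.56e-05) and was not called in DND-41 (−0.002 ± 0.06, adjusted p = 0.979). The stress gene GADD45B was called lower in MOLT-4 (−0.47 ± 0.15, adjusted p = 0.0146) and higher in DND-41 (0.81 ± 0.06, adjusted p = 1.33e-07). GADD45B was not called in MOLT-4 without ACBI-1 replicate 1 (log2 −0.30 at an adjusted p of 0.156), without DMSO replicate 2 (log2 −0.34 at an adjusted p of 0.146) or by DESeq2 (log2 −0.47 at an adjusted p of 0.13). CDKN1A, the CDK inhibitor p21, fell in MOLT-4 (−1.34 ± 0.29, adjusted p = 8.09e-04), on only 28 and 17 counts with ACBI-1, against 49 and 72 with DMSO. It also fell in DND-41 (−0.36 ± 0.10, adjusted p = 0.0119), though it was not called there by DESeq2 (log2 −0.36 at an adjusted p of 0.0806). CDKN1A was not called in MOLT-4 without both replicate 2 libraries (log2 −0.81) or in DND-41 without DMSO replicate 1 (log2 −0.29). Of 23 cell cycle transcription factor and MuvB genes, 14 were called higher and 4 lower in MOLT-4 (median log2 fold change 0.23), and 7 were called higher and 6 lower in DND-41 (median log2 fold change 0.03). Of the NF-Y subunit genes, NFYA and NFYC rose in both lines, NFYC by 0.65 ± 0.05, adjusted p = 3.24e-09 in MOLT-4 and 0.88 ± 0.06, adjusted p = 3.31e-08 in DND-41, and NFYA by 0.42 ± 0.05, adjusted p = 2.20e-06 in MOLT-4 and 0.61 ± 0.06, adjusted p = 1.98e-06 in DND-41 (log2). The other subunit gene, NFYB, given after its values were seen, was called in neither MOLT-4 (−0.15 ± 0.08, adjusted p = 0.144) nor DND-41 (−0.17 ± 0.07, adjusted p = 0.0673). LIN54, the MuvB subunit that binds CHR letters, fell in MOLT-4 (−0.74 ± 0.07, adjusted p = 1.42e-08) and was not called in DND-41 (−0.03 ± 0.07, adjusted p = 0.796). Other MuvB genes, given after their values were seen, did not fall. LIN9 (log2 0.27 in MOLT-4 and 0.26 in DND-41) and LIN52 (log2 0.32 in MOLT-4 and 0.46 in DND-41) were called higher in both lines. LIN37 and RBBP4 were called in neither. MYBL2 was called higher in MOLT-4 (0.18 ± 0.07, adjusted p = 0.0378) and lower in DND-41 (−0.42 ± 0.07, adjusted p = 1.07e-04). The MOLT-4 call of MYBL2 ended without ACBI-1 replicate 1 (log2 0.11 at an adjusted p of 0.334), without DMSO replicate 2 (log2 0.15 at an adjusted p of 0.074) and with library size alone (log2 0.10 at an adjusted p of 0.443), while NFYB was called lower in MOLT-4 without ACBI-1 replicate 2 (log2 −0.28 at an adjusted p of 0.0191) and in DND-41 without ACBI-1 replicate 2 (log2 −0.21 at an adjusted p of 0.0233). Over all genes tested, the median log2 fold change was 0.00 in MOLT-4 and 0.01 in DND-41.

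**Figure D5:**
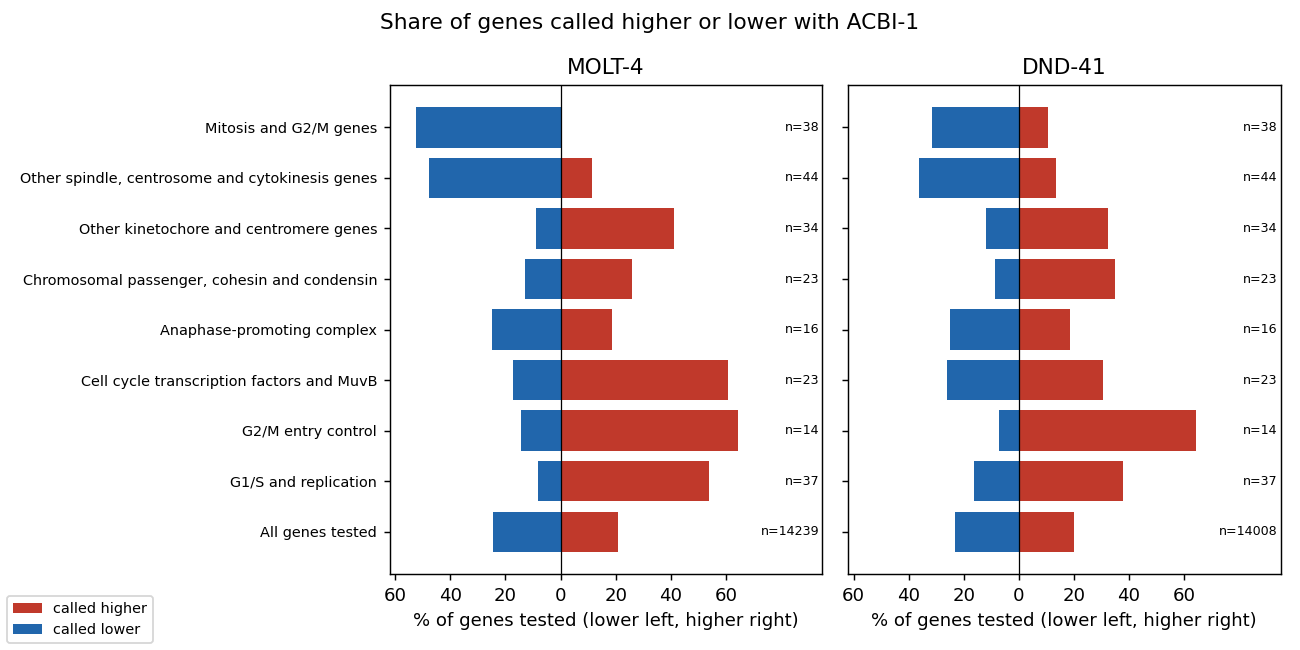
Share of the tested genes of each list called lower (blue, to the left) or higher (red, to the right) with ACBI-1, in MOLT-4 (left) and DND-41 (right), with the number tested at the right of each row. The mitosis and G2/M genes and the other spindle genes extend mostly to the left, while the G1/S genes and the genes that control mitotic entry, in either sense, extend mostly to the right.

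Set against the promoter letters, the 26 genes with CHR letters had 14 falls and no rise in MOLT-4 and 6 falls and 2 rises in DND-41, with medians of −0.21 in MOLT-4 and −0.04 in DND-41 (log2). The 5 genes without them in the 5′-most window, the only one searched, had 2 falls and no rise in MOLT-4 and 3 falls and 2 rises in DND-41. Their medians were −0.10 in MOLT-4 and −0.16 in DND-41. Over all genes tested, 24.4% were called lower and 20.7% higher in MOLT-4, and 23.2% lower and 20% higher in DND-41. The genes without CHR letters held both CDC25B, among the largest falls in each line, and BUB1, the largest rise in DND-41. PTTG1, CCNB1 and CDC20, whose letters are shown in the windows above, fell in both lines, but PTTG1 was shown because of its large change. Other genes with CHR letters, among them CDK1, ESPL1, KIF11, NUSAP1, ECT2, HMMR and PRC1, were called in neither line. NDC80 and BUB1B, also with CHR letters, were called higher in DND-41. Whether the letters go with the changes was not tested.

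The transcripts of the degrader's own targets were measured as a reference point, and their levels do not measure the proteins. SMARCA4 was called higher in MOLT-4 (0.19 ± 0.06, adjusted p = 0.0187) and DND-41 (0.34 ± 0.06, adjusted p = 2.84e-04), but in MOLT-4 not without ACBI-1 replicate 1 (log2 0.20 at an adjusted p of 0.0575) or ACBI-1 replicate 2 (log2 0.20 at an adjusted p of 0.0663). SMARCA2 was not called in MOLT-4 (0.14 ± 0.08, adjusted p = 0.152) and was called lower in DND-41 (−0.19 ± 0.07, adjusted p = 0.0433), though not without ACBI-1 replicate 1 (log2 −0.12 at an adjusted p of 0.138) or DMSO replicate 2 (log2 −0.13 at an adjusted p of 0.389). PBRM1 was called lower in MOLT-4 (−0.16 ± 0.06, adjusted p = 0.0288), though not without ACBI-1 replicate 2 (log2 −0.08 at an adjusted p of 0.461), DMSO replicate 2 (log2 −0.14 at an adjusted p of 0.0605) or both (log2 −0.08 at an adjusted p of 0.616). PBRM1 in DND-41 was not called (0.06 ± 0.07, adjusted p = 0.485), except as higher without ACBI-1 replicate 1 (log2 0.15 at an adjusted p of 0.0281).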

How the data were processed

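The deposited count tables hold whole-number counts per gene for the 8 libraries, made by the authors. The submitters' processing notes name STAR 2.5.2a, featureCounts, DESeq2 1.12.4 and hg19 with no order, and the sources used here name no annotation or strand setting. The log2 fold changes, the p-values and the score columns (mean normalized count, test statistic) of the authors' comparison tables, per the file headers, served only for gene names and in the closing section.

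The 38 genes, the other gene lists and the marker lists were chosen with earlier results of these data known. Each line was tested alone with edgeR 4.0.16 in R 4.3.3: filterByExpr at a minimum count of 10, TMM scaling, and the quasi-likelihood F test, with Benjamini-Hochberg adjustment over all genes tested and a threshold of 0.05. SE was taken as the size of the log2 fold change over the square root of F, which borrows spread across genes. The difference between lines and the comparison of DMSO libraries were contrasts over all 8 libraries with 4 group means. CPM uses TMM effective library sizes over all 8 libraries. Exon lengths and overlaps between genes come from GENCODE v29, matched by gene identifier, which is not the authors' annotation. Library totals, given with the results, were nearly equal and set the precision.

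Per-library values are given for genes called in a line at 0.3 log2 or more, for the 5 with the largest difference between lines and for the first of each role, and of the other lists up to 2 rises and 2 falls a line with the smallest adjusted p may be named. 1 single gene of those lists is left out and not reported here. Scripts were tested on simulated counts. Alternatives were a threshold of 0.01, DESeq2 1.42.0, RLE size factors, library size alone, no filter, at least 1 CPM in every library, a replicate block, all 8 libraries in 1 fit and each library left out in turn, a lone library then being taken to vary like the other group. Leaving out mitochondrially encoded genes and both MOLT-4 replicate 2 libraries was chosen after seeing the data. Promoter letters were searched with Python 3.11.15 and pandas 2.3.3.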

Additional observations from a re-analysis of the deposited data

Results flagged for a closer look

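The results listed here stand out because the effect of ACBI-1 differed between the lines in the interaction test (MOLT-4 effect minus DND-41 effect, log2, edgeR, adjusted p under 0.05). Of the 38 genes these were CENPE (−0.48 ± 0.09, adjusted p = 8.11e-04), DLGAP5 (−0.40 ± 0.08, adjusted p = 0.00319), BUB1 (−0.38 ± 0.07, adjusted p = 0.00176), CENPF (−0.37 ± 0.08, adjusted p = 0.00365), KIF20A (−0.37 ± 0.09, adjusted p = 0.00785) and BUB1B (−0.27 ± 0.08, adjusted p = 0.0339), each with the lower log2 fold change in MOLT-4. No group holds more than 2 libraries, so single libraries could not be tested as outliers.

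Among the other cell cycle genes, the difference was negative for MAD2L1BP (−1.41), GADD45B (−1.26), CDKN1A (−0.96), GSG2 (−0.81), LIN54 (−0.70) and the anaphase-promoting complex activator FZR1 (−0.27). It was positive for MYBL2 (0.62), CCNE2 (0.54), PKMYT1 (0.40), the centromere gene CENPK (0.36) and the cohesin regulator CDCA5 (0.32). Outside the cell cycle genes, the difference was positive for the degrader target SMARCA2 (0.35). The 9 T-lineage genes are not listed by name, but 6 were called lower and 1 higher in this difference (median −0.39). Of all genes tested, 6.17% were called lower and 7.18% higher. Each value is the MOLT-4 effect minus the DND-41 effect on the log2 scale.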

How the results depend on the processing

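Most calls kept their direction and side of the threshold in MOLT-4, and fewer did in DND-41. The 4 genes higher in DND-41 became 1 at a threshold of 0.01, by DESeq2 and with no filter, and 2 with all 8 libraries in 1 fit and without mitochondrially encoded genes, and ranged from 1 to 5 when each library was left out in turn. The 12 lower in DND-41 ranged from 7 to 14 in the same way, and the 1 gene beyond 0.5 log2 higher there from 0 to 1. The 20 lower in MOLT-4 ranged from 18 to 22. The 6 genes lower in the difference between lines became 11 with library size alone and 3 without both MOLT-4 replicate 2 libraries, and ranged from 4 to 8 with 1 library left out, while the genes higher ranged from 0 to 2. The 14 higher in MOLT-4 among DMSO libraries became 6 with library size alone and otherwise ranged from 11 to 15 with 1 library left out, and the 11 lower from 8 to 11. The 2 genes beyond 0.5 log2 lower in MOLT-4 became 4 with library size alone. Of single genes, ASPM in DND-41 changed sign, from −0.139 without ACBI-1 replicate 2 to 0.163 without ACBI-1 replicate 1. The share of all genes called also moved with the setting. In DND-41 it was 43.2% in the main fit, 30.8% by DESeq2 and 19.8% with no filter. It was 39.7% there with all 8 libraries in 1 fit and 43.6% without mitochondrially encoded genes. With library size alone it was 12.3% for the difference between lines and 62.3% among DMSO libraries, against 13.3% and 63.8% in the main fit. Counts with a library left out are not set against that share in this section. The causes were not tested.

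Same-numbered libraries deviated together with r = 0.205 in MOLT-4 and r = 0.093 in DND-41, and with 2 pairs a line the numbers were not taken to pair the libraries, although both MOLT-4 replicate 2 libraries had the higher stromal sums. With the replicate block, 22 genes were lower and 0 higher in MOLT-4, 14 lower and 6 higher in DND-41, and 6 lower in the difference between lines. Among DMSO libraries it gave 11 higher and 11 lower. Of all genes, 48.6% were then called in MOLT-4, 49.1% in DND-41, 16.6% in the difference between lines and 59.6% among DMSO libraries. Limits are the 2 libraries a group and 1 time point, and genes that overlap on the opposite strand.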

Other observations

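Signs were compared over the genes called here by edgeR, whether or not the authors called them. In the authors' deposited table for DND-41, every such gene had the sign of ACBI-1 over DMSO found here (100%). In the authors' deposited table for MOLT-4 none did (0%), so that table runs DMSO over ACBI-1. With the MOLT-4 signs turned to ACBI-1 over DMSO, the authors' deposited table called 0 of the 38 genes higher and 19 lower in MOLT-4. The authors' deposited table for DND-41 called 1 higher and 9 lower.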
